A study of Mus musculus with 6 samples.

Results

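The 8 genes described here encode the core of the reelin signaling pathway, and they were taken from the table of gene counts by their symbols: the ligand gene *Reln*, the receptor genes *Vldlr* and *Lrp8*, the adaptor gene *Dab1*, the kinase genes *Fyn* and *Src*, and the downstream adaptor genes *Crk* and *Crkl*. They are 8 of the 54532 genes in the table. Reelin is a large secreted glycoprotein that, in the developing cerebellum, is made mainly by granule neuron progenitors (GNPs) and young granule neurons of the outer layers. It binds the receptors VLDLR and ApoER2 (the product of *Lrp8*) on Purkinje cells, the kinases Fyn and Src then phosphorylate the intracellular adaptor Dab1, and phosphorylated Dab1 recruits Crk and CrkL. Mice that lack reelin or Dab1 are ataxic, with a small cerebellum in which Purkinje cells fail to form their layer.

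Bulk RNA-seq of poly(A) RNA was performed on 6 cerebella of mice at postnatal day 1, to ask which genes depend on the transcription regulator Tox3. The 3 controls were littermates labelled *Tox3f/f*, homozygous for a floxed *Tox3* allele and without Cre, and the 3 mutants were labelled *Nestin-cre;Tox3f/f*. The *Nestin-cre* transgene drives Cre recombinase in neural progenitors, and so in the neurons and glia that derive from them. It was present in all mutants and in no control, so its own effect and that of the deletion cannot be told apart.

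Total counts on genes lay between 15391854 and 17178478 per library, and 2.01% to 2.55% of them were mitochondrial. All 8 members were among the 17505 genes that passed the filter on low counts, and counting error alone was 1.40% to 2.44% of a member's count in its smallest library. *Tox3*, the targeted gene, had 64.3, 63.0 and 64.4 CPM (counts scaled to a common library total) in the controls and 55.3, 63.2 and 59.2 CPM in the mutants. The deleted exons are not given in the sources used here, and counts over the whole gene do not check the deletion. *Atoh1*, which encodes the transcription factor that maintains GNPs, had 32.6, 32.0 and 30.9 CPM in the controls and 0.577, 0.261 and 0.249 CPM in the mutants, so the libraries separated as labelled. Reads of Y-linked genes were present in control 1, mutant 1 and mutant 3, while *Xist* reads were abundant in the other libraries, so each group held animals of both sexes. The GNP markers fixed for the check of the tissue summed to 1137 to 1238 CPM in the controls, the granule neuron markers to 3403 to 3582 CPM, and the Purkinje cell markers to 1737 to 1862 CPM, whereas *Hox* genes of the hindbrain stayed under 1 CPM in sum in every library.

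A promoter window of *Reln*, the member with the largest difference, is shown beside 1 of the *Vldlr* windows, as examples of high and low GC content. Each run is the 250 bases before the start of the gene, from RefSeq on GRCm38.p6, printed 5′ to 3′ on the gene's own strand, and capitals mark the E-box CANNTG. This short palindromic motif is bound by basic helix-loop-helix factors, the family of Atoh1. The *Reln* window lies at chr5:22344706-22344955 on the minus strand, and the *Vldlr* window at chr19:27216234-27216483 on the plus strand.
Reln: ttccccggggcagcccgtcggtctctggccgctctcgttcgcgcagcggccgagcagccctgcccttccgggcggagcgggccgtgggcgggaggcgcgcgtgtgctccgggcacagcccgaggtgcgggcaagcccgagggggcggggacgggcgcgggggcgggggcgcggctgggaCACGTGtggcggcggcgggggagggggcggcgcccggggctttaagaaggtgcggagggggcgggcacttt
Vldlr: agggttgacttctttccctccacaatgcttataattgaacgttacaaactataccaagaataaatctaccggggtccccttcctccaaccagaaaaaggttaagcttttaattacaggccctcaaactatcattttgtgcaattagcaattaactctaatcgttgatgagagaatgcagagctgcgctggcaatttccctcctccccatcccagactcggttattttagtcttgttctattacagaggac
The *Reln* window held 1 E-box, CACGTG, which began 71 bases before the start, and 80.0% of its bases were G or C, with 37 CpG dinucleotides. This *Vldlr* window held no CANNTG and was 41.6% G or C, against a median of 52.4% over all windows. *Vldlr* has another listed start, chr19:27216770-27217019, whose window held 3 E-boxes and was 66.4% G or C. Of the 12 windows listed for the 8 members, 7 held CANNTG (58.3%), including windows of *Dab1*, *Lrp8* and *Crkl*, which were not downregulated. Of 32851 promoter windows of this length, 66.2% held CANNTG, 6.02% held CACGTG, 13.0% held CAGCTG, and 17.2% held CAGGTG or its reverse complement CACCTG. A match of letters is a description of the sequence and not a measured binding site.

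*Reln* (ENSMUSG00000042453) was the member that fell. The gene lies at chr5:21884454-22344702 on the minus strand of GRCm38, the build of the table, and spans 460.2 kb. The 3 controls had 656, 738 and 733 CPM, and the 3 mutants had 319.7, 366 and 299 CPM. The groups did not overlap, and the highest mutant library stood 290 CPM below the lowest control. The mean was 709 ± 46.0 CPM (SD, n = 3) in the controls and 328 ± 34.6 CPM (SD, n = 3) in the mutants. By edgeR's quasi-likelihood test, the log2 fold change of *Reln* was -1.11 (SE 0.08, 95% interval -1.29 to -0.94, adjusted p = 1.666e-05), or 53.7% less in the mutants, and *Reln* ranked 72 among all tested genes by p. In bulk tissue, fewer cells of a type and less RNA per cell cannot be told apart.

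**Figure D1:**
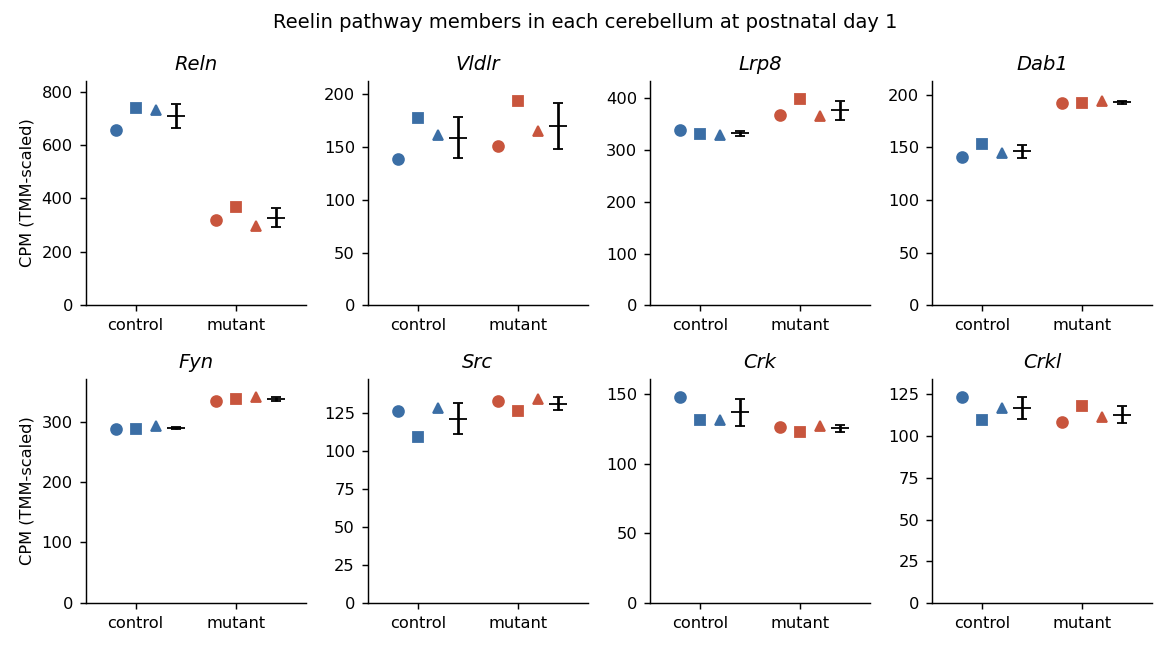
CPM (vertical axis, from 0, a scale of its own in each panel) of the 8 members in the 3 control (blue) and 3 mutant (red) libraries. Circles, squares and triangles are libraries 1, 2 and 3 of a group, and the black bars give the mean and SD. *Reln* lay between 299 and 366 CPM in the mutants against 656 to 738 CPM in the controls, while *Dab1*, *Fyn* and *Lrp8* lay above the controls in every mutant.

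Calls followed the study's thresholds, which ask for both an adjusted p below 0.01 and a difference of more than 0.5 on the log2 scale. With these, 1 of the 8 members was downregulated and 0 were upregulated, where 3.63% of all tested genes were downregulated and 3.03% upregulated. Without the fold threshold, 2 members, *Dab1* and *Fyn*, were higher in the mutants at an adjusted p under 0.01 (6.55% of all tested genes), and 4 of the 8 members had an unadjusted p under 0.05 (37.1% of all tested genes). Every mutant library was below every control library for *Reln* and *Crk*, 2 of 8 members (20.1% of all tested genes), and above every control for *Lrp8*, *Dab1* and *Fyn*, 3 of 8 (20.4%). The median log2 fold change was 0.10 over the members and -0.01 over all tested genes.

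The receptor genes differed little between the groups. *Lrp8* (ENSMUSG00000028613; chr4:107802261-107876840, plus strand), which encodes ApoER2, had 338, 331 and 329 CPM in the controls and 367, 398 and 365 CPM in the mutants. All mutants lay above all controls, by a gap of 26.9 CPM, and mutant 2 was the highest. The log2 fold change of *Lrp8* was 0.18 (SE 0.05, 95% interval 0.07 to 0.29), or 13.3% more, and missed the adjusted threshold (adjusted p = 0.02299, edgeR's quasi-likelihood test). *Vldlr* (ENSMUSG00000024924; chr19:27216484-27254231, plus strand), the gene of the very low density lipoprotein receptor, had 138, 177 and 161 CPM in the controls and 151, 194 and 165 CPM in the mutants. The groups overlapped, and libraries of the same group differed by more than the group means did. The log2 fold change of *Vldlr* was 0.10 (SE 0.10, 95% interval -0.13 to 0.33, adjusted p = 0.5322), an interval that includes both a small fall and a rise of up to 1.26-fold. Among the libraries with Y-linked reads, *Vldlr* was 138 CPM in 1 control and 158 CPM on average in 2 mutants, and among those without it was 169 CPM in 2 controls and 194 CPM in 1 mutant. The log2 differences of *Vldlr* within these strata were 0.19 and 0.20, and a fit with the level of Y-linked genes as a covariate gave 0.19 (adjusted p = 0.01602).

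*Dab1* (ENSMUSG00000028519; chr4:103619359-104744844, plus strand, spanning 1125 kb), the adaptor that carries the signal from the receptors, was higher in the mutants. The controls had 141, 153 and 144 CPM and the mutants 192, 192 and 195 CPM. The mutants lay close together, with an SD of 1.45 CPM, and the lowest was 38.9 CPM above the highest control. The log2 fold change of *Dab1* was 0.40 (SE 0.05, 95% interval 0.29 to 0.51, adjusted p = 0.0003117), or 32.0% more, which passed the adjusted p but not the fold threshold. *Dab1* was thus opposite in direction to *Reln*. RNA was measured here, and neither the amount nor the phosphorylation of the Dab1 protein.

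Of the Src family kinases that phosphorylate Dab1, *Fyn* was higher in the mutants and *Src* was not distinguishable. *Fyn* (ENSMUSG00000019843; chr10:39368855-39565381, plus strand) had 289, 288 and 292 CPM in the controls and 334, 338 and 341 CPM in the mutants. The spread within either group was small, with SDs of 2.36 and 3.38 CPM, and the groups were 41.9 CPM apart. Its log2 fold change was 0.22 (SE 0.04, 95% interval 0.13 to 0.31, adjusted p = 0.003545), or 16.6% more. With control 1, 2 or 3 or mutant 1 or 3 left out, the adjusted p of *Fyn* was above 0.01, between 0.01181 and 0.01986. *Src* (ENSMUSG00000027646; chr2:157418444-157471862, plus strand) had 127, 109.5 and 128 CPM in the controls and 133, 126 and 134 CPM in the mutants. Control 2 was the lowest library, and the other values overlapped. The log2 fold change of *Src* was 0.11 (SE 0.07, 95% interval -0.04 to 0.26, adjusted p = 0.2578).

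The adaptors that bind phosphorylated Dab1 showed no call. *Crk* (ENSMUSG00000017776; chr11:75679259-75706908, plus strand) had 148, 131 and 132 CPM in the controls and 127, 123 and 127 CPM in the mutants. The mutants lay below the controls, but the gap was 3.76 CPM, less than the SD of the controls (9.58 CPM). Its log2 fold change was -0.12 (SE 0.06, 95% interval -0.25 to 0.01, adjusted p = 0.1511). *Crkl* (ENSMUSG00000006134; chr16:17451987-17487434, plus strand), the gene of the Crk-like adaptor, had 124, 110.0 and 117 CPM in the controls and 108, 118 and 112 CPM in the mutants. These values overlapped, and the log2 fold change of *Crkl* was -0.05 (SE 0.06, 95% interval -0.18 to 0.08, adjusted p = 0.5686).

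**Figure D2:**
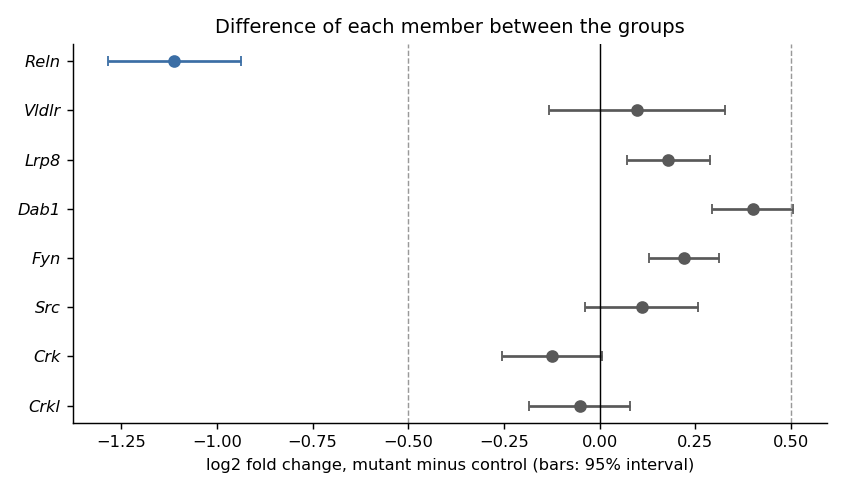
Log2 fold change, mutant minus control (horizontal axis), of each member from edgeR's quasi-likelihood fit, with bars for the 95% interval and dashed lines at the fold threshold of 0.5 on either side of 0. *Reln* (blue) at -1.11 lies beyond the threshold, and the other 7 members (gray) lie between -0.12 and 0.40.

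Within strata by Y-linked reads, which leave no more than 2 libraries of a group and allow no test, the log2 difference of *Reln* was -1.09 in libraries with such reads and -1.01 in those without. The corresponding values were 0.46 and 0.37 for *Dab1*, and 0.23 and 0.22 for *Fyn*. *Lrp8* gave 0.12 and 0.27, *Src* 0.08 and 0.09, and *Crk* -0.22 and -0.10. *Crkl* was the member whose direction differed between strata, at -0.17 and 0.06.

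Levels of different members were compared as FPKM, fragments scaled to gene length and library total. In the controls, *Fyn* was the highest at 65.7 ± 0.54 FPKM (SD, n = 3), followed by *Lrp8* at 31.3 ± 0.45, *Reln* at 29.6 ± 1.94, *Crk* at 28.7 ± 1.99, *Src* at 27.5 ± 2.34, *Crkl* at 23.0 ± 1.33, *Dab1* at 18.3 ± 0.79 and *Vldlr* at 15.7 ± 1.94 FPKM. The libraries of *Reln* and *Crk* overlapped, as did those of *Crk* and *Src*, and the other neighbors in this order did not overlap. All 8 were well expressed: the control level of *Vldlr*, the lowest, exceeded that of 84.0% of protein-coding genes, and that of *Fyn* exceeded 97.6%.

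In the mutants, *Reln* moved from place 3 to place 8, at 13.8 ± 1.38 FPKM (SD, n = 3), where its libraries overlapped those of *Vldlr* at 16.8 ± 2.07 FPKM. The order above them was *Fyn* at 77.0, *Lrp8* at 35.7, *Src* at 29.8, *Crk* at 26.4, *Dab1* at 24.3 and *Crkl* at 22.2 FPKM, with no overlap between neighbors. These levels depend on the gene length used. The table divides *Reln* by 23738 bases, the union of all its annotated exons, which is 2.03 times the 11699 bases of its longest coding transcript in GENCODE M21. With the latter lengths, chosen after seeing the data, *Reln* was at 60.1 FPKM in the controls, second to *Fyn* at 80.5 FPKM and above *Lrp8* at 49.7 FPKM. It was then at 27.9 FPKM in the mutants, place 6 of 8, above *Crkl* at 22.2 and *Vldlr* at 21.2 FPKM.

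**Figure D3:**
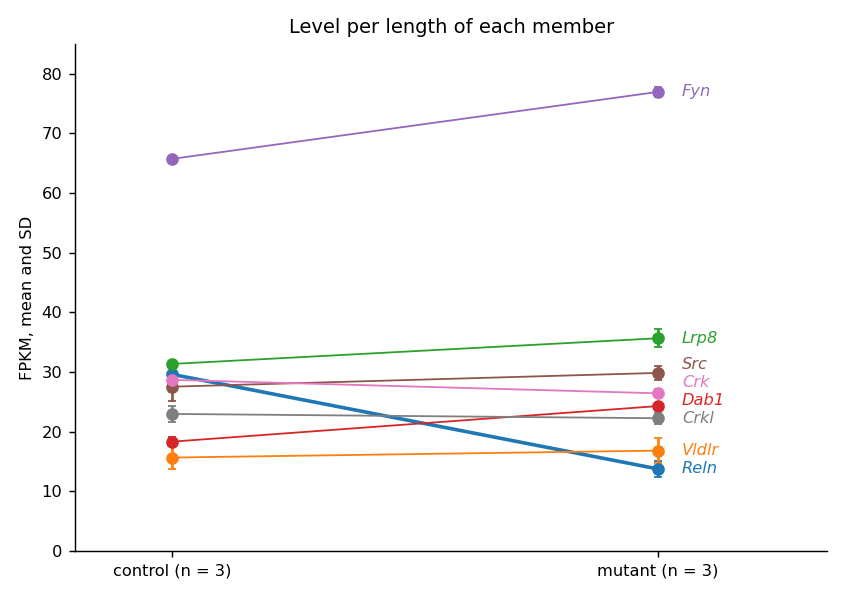
Mean level of each member in FPKM (vertical axis, from 0) in the 3 control and the 3 mutant libraries, with SD as error bars and lines that join the group means of a gene. *Reln* (thick line) goes from 29.6 to 13.8 FPKM, the lowest of the 8 in the mutants, while *Dab1* goes from 18.3 to 24.3 FPKM.

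The ligand was then set against the genes that receive it, within each library. The ratio of *Reln* to the sum of *Vldlr* and *Lrp8* in FPKM was 0.602, 0.633 and 0.653 in the controls and 0.270, 0.270 and 0.246 in the mutants. All mutants thus had less ligand RNA per receptor RNA than any control. The sum of the receptors was 47.0 ± 1.63 FPKM in the controls and 52.5 ± 3.53 FPKM in the mutants (SD, n = 3 each). *Dab1* per receptor was 0.390 ± 0.00417 in the controls and 0.464 ± 0.0340 in the mutants, and *Reln* per *Dab1* was 1.62 ± 0.0713 and 0.567 ± 0.0630 (SD, n = 3 each). These ratios of sums were chosen after seeing the data and were not tested.

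The balance within each pair of related members was tested with an exact two-sided permutation test of the log2 ratio of FPKM values over the 20 arrangements of the 6 libraries, which cannot give a p below 0.1. The log2 ratio of *Vldlr* to *Lrp8* was -1.01 ± 0.20 in the controls and -1.09 ± 0.12 in the mutants (SD, n = 3 each, exact p = 0.6). That of *Fyn* to *Src* was 1.26 ± 0.12 and 1.37 ± 0.05 (SD, n = 3 each, exact p = 0.3), and that of *Crk* to *Crkl* 0.32 ± 0.05 and 0.25 ± 0.09 (SD, n = 3 each, exact p = 0.3). The differences of the means were -0.08, 0.11 and -0.07, within the range of the single libraries.

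Markers of GNPs and of granule neurons, described above as the main makers of reelin, were lower together with *Reln*. Of 8 GNP markers, 7 were downregulated (3.63% of all tested genes). The median of the list was -1.13 on the log2 scale, and its summed level was 1137 to 1238 CPM in the controls against 539 to 568 CPM in the mutants. Of 7 granule neuron markers, 4 were downregulated (3.63% of all tested genes). This list had a median of -0.73 and a sum of 3403 to 3582 CPM in the controls against 2413 to 2582 CPM in the mutants. The genes with the smallest p were *Barhl1* (log2 fold change -2.59), *Atoh1* (-6.40), *Ccnd1* (-1.05) and *Boc* (-1.22) for GNPs, and *Neurod1* (-1.16), *Pax6* (-0.99), *Rbfox3* (-0.73) and *Cntn2* (-0.79) for granule neurons. *Reln*, at -1.11, was close to the median of the former list, whose genes ran widely, from -6.40 to -0.33.

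Set against the granule neuron markers within each library, the difference between the log2 FPKM of *Reln* and the mean of their log2 FPKM values (a log2 ratio to the geometric mean) was -1.50, -1.23 and -1.29 in the controls and -1.82, -1.66 and -1.87 in the mutants. Every mutant lay below every control, and the means differed by -0.44 (exact p = 0.1, two-sided, the smallest possible, 0.4 after Benjamini-Hochberg adjustment over the 4 ratios tested). This difference holds for the granule neuron markers alone. A ratio to the GNP markers was not taken, and their median log2 fold change was lower (-1.13 against -0.73). The part of cell numbers in the difference of *Reln* was not tested.

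Estimates were above 0 for 9 of 10 Purkinje cell markers and for 8 of 9 Bergmann glia and astrocyte markers (8601 of all 17505 tested genes). Of 10 Purkinje cell markers, 5 were upregulated (3.03% of all tested genes). *Lhx1* was lower in every mutant (log2 fold change -0.38, adjusted p = 0.0007783 by edgeR's quasi-likelihood test, short of the fold threshold, named after its value was seen). The list had a median of 0.57 on the log2 scale and a summed level of 1737 to 1862 CPM in the controls against 2321 to 2810 CPM in the mutants. *Skor2* (log2 fold change 0.78), *Calb1* (0.68), *Pcp2* (0.63) and *Car8* (0.63) had the smallest p. Of 9 Bergmann glia and astrocyte markers, 3 were upregulated (3.03% of all tested genes), among them *Gfap* (1.42) and *Gdf10* (1.18). That list had a median of 0.37 and a sum of 3662 to 3713 CPM in the controls against 4751 to 5112 CPM in the mutants. *Aldh1l1* (0.46) and *Slc1a3* (0.37) of this list were higher at an adjusted p under 0.01 (0.0001444 and 0.0002205), short of the fold threshold, as *Dab1* was. No gene of these lists was at 0 in all libraries. The share of these cell types in the differences of *Dab1*, *Fyn* and *Lrp8* was not tested.

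**Figure D4:**
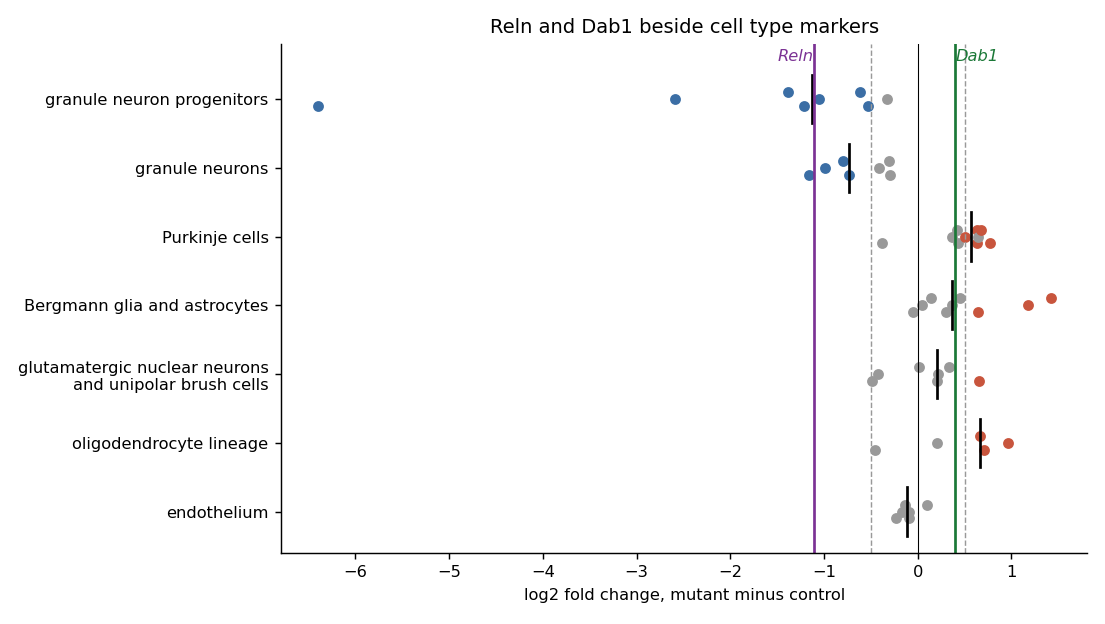
Log2 fold change, mutant minus control (horizontal axis), of the single genes of 7 cell type marker lists (rows). Blue points were downregulated, red points upregulated and gray points not called, short black bars are list medians, dashed lines stand at 0.5 on either side of 0, and vertical lines give *Reln* (purple, -1.11) and *Dab1* (green, 0.40). *Reln* lies near the median of the GNP markers (-1.13). *Dab1* lies between the medians of the Bergmann glia and astrocyte markers (0.37) and of the Purkinje cell markers (0.57). The median of the microglial markers, which are not drawn, was 0.39.

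The genes whose pattern over the 6 libraries was most like that of *Reln* were sought among 10747 protein-coding genes at an average of 10 CPM or more, by the root mean square distance of log2 CPM centered on the control mean. They were *Esco2*, a cohesin acetyltransferase (distance 0.05), *Kcnk9*, a potassium channel (0.07), *Cdca7l* (0.09), *Dtl*, a ubiquitin ligase subunit of DNA replication (0.09), and *Slfn9* (0.09). Their log2 fold changes lay between -1.21 and -0.99. *Kcnk9* was the most abundant of them, at 200.2 CPM in the controls and 93.0 CPM in the mutants.

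Beyond the 8 members, 52 further genes of the pathway were grouped in 5 lists by role, and all were tested. Of these 52 genes, 2 were downregulated and 3 upregulated (3.63% and 3.03% of all tested genes). Estimates were below 0 for 23 (50.9% of all tested genes) and above for 29, and the median log2 fold change was 0.02. Without the fold threshold, 3 were lower and 10 higher at an adjusted p under 0.01, where 7.24% of all tested genes were lower and 6.55% higher.

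Among the 9 genes for proteases that cut reelin and for other ligands of its receptors, 3 were upregulated (3.03% of all tested genes). Estimates were above 0 for 8 of the 9 (8601 of all 17505 tested genes), and the median log2 fold change was 0.38. *Apoe* encodes apolipoprotein E, which gives ApoER2 its name. It rose from 646, 657 and 728 CPM in the controls to 1055, 1081 and 1139 CPM in the mutants (log2 fold change 0.69, SE 0.06, adjusted p = 4.182e-05 by edgeR's quasi-likelihood test). *Clu*, a secreted chaperone that also binds these receptors, had a log2 fold change of 0.63 (SE 0.10, adjusted p = 0.001799). *Adamts2*, a protease that cleaves reelin, had 15.8, 21.6 and 21.8 CPM in the controls and 32.0, 28.0 and 31.6 CPM in the mutants (log2 fold change 0.63, SE 0.12, adjusted p = 0.005084). The call of *Adamts2* was lost with control 1, 2 or 3 or mutant 1 or 3 left out, and its log2 fold change ranged from 0.46 to 0.71 over 16 other fits. *Plat*, tissue plasminogen activator, another protease of reelin, was higher by 0.37 on the log2 scale (adjusted p = 0.0005735). *Adamts4*, also a reelin protease, gave 0.38 (adjusted p = 0.02149), which missed the threshold. *Adamts3*, another reelin protease, had 36.1, 44.1 and 35.3 CPM in the controls and 46.4, 71.6 and 50.9 CPM in the mutants. Its log2 fold change was 0.55 (SE 0.15, adjusted p = 0.02718), which missed the adjusted threshold here but passed both in 4 of 16 other fits, DESeq2 among them.

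Of 10 genes for co-receptors and the handling of receptors, 0 were called by edgeR's quasi-likelihood test, and 5 had an unadjusted p under 0.05 (37.1% of all tested genes). Estimates were above 0 for 8 of the 10 (8601 of all 17505 tested genes), with a median log2 fold change of 0.13. The ephrin genes *Efnb3* (0.39) and *Efnb2* (0.29) were higher at adjusted p values of 0.00205 and 0.009026, short of the fold threshold. *App* had a log2 fold change of 0.17 (adjusted p = 0.01601).

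None of the 15 genes for kinases and adaptors downstream of Dab1 was called, and 4 had an unadjusted p under 0.05 (37.1% of all tested genes). The smallest p belonged to *Nck2*, an adaptor that binds phosphotyrosine (log2 fold change -0.37, adjusted p = 0.00465), *Pik3r1*, a regulatory subunit of phosphoinositide 3-kinase (0.33, adjusted p = 0.005838), and *Limk1*, the kinase of cofilin (-0.24, adjusted p = 0.01024).

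Of 6 genes for the turnover of phosphorylated Dab1, 1 was downregulated (3.63% of all tested genes) and the other 5 did not pass an adjusted p of 0.01. All 6 estimates were below 0 (50.9% of all tested genes), with a median log2 fold change of -0.19. *Socs3*, of the suppressors of cytokine signaling, had 15.5, 16.3 and 15.03 CPM in the controls and 8.02, 10.6 and 7.22 CPM in the mutants (log2 fold change -0.86, SE 0.14, adjusted p = 0.001931). The call of *Socs3* was lost without control 2 or without mutant 1, where the adjusted p was 0.01008 or more. *Cul5*, the cullin of the ligase that degrades Dab1, gave -0.35 (adjusted p = 0.01673), *Socs7* -0.16 (adjusted p = 0.05011) and *Cbl* -0.21 (adjusted p = 0.2396).

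Of 12 cytoskeletal partners, 1 was downregulated (3.63% of all tested genes). It was *Nde1*, a dynein regulator that also serves in mitosis. *Nde1* had 57.0, 57.5 and 52.5 CPM in the controls and 36.2, 39.2 and 37.2 CPM in the mutants (log2 fold change -0.57, SE 0.07, adjusted p = 0.000428 by edgeR's quasi-likelihood test). The activators of Cdk5, *Cdk5r2* (0.33, adjusted p = 0.002024) and *Cdk5r1* (0.21, adjusted p = 0.006665), and *Mapt*, which encodes tau (0.27, adjusted p = 0.00539), were higher but short of the fold threshold.

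**Figure D5:**
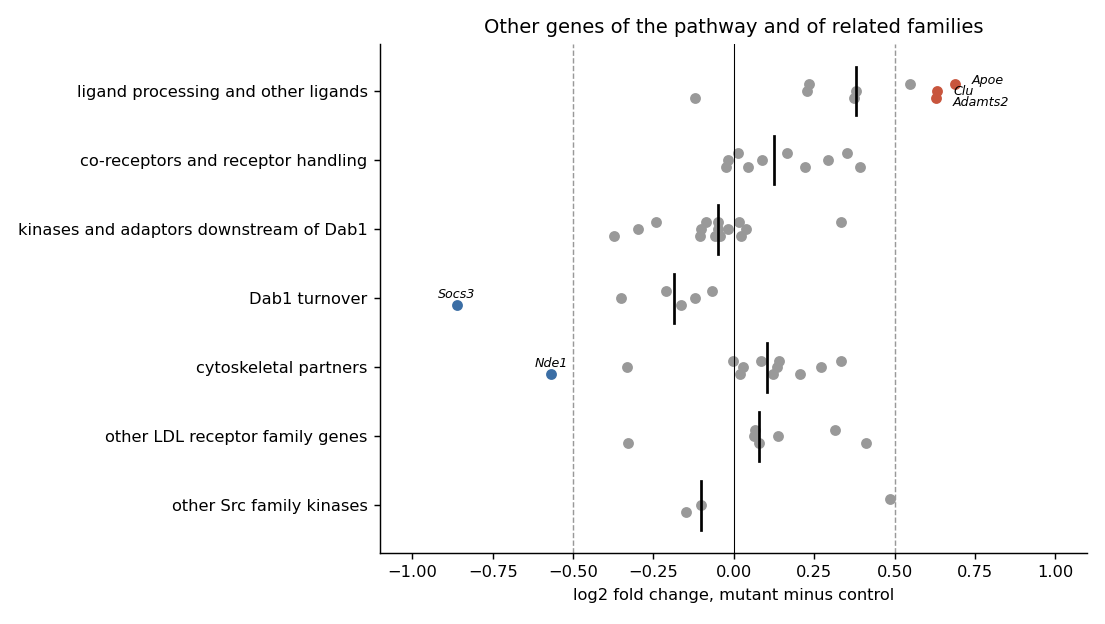
Log2 fold change, mutant minus control (horizontal axis), of the genes in 5 lists of further pathway genes and in 2 related gene families (rows). Blue points were downregulated, red points upregulated and gray points not called, black bars are list medians, and dashed lines stand at 0.5 on either side of 0. *Socs3* lies at -0.86, and the ligand and protease list has the highest median (0.38).

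Relatives of the members were not called. Of 7 other genes of the LDL receptor family, 0 passed both thresholds by edgeR's quasi-likelihood test. An unadjusted p under 0.05 was found for 3 (37.1% of all tested genes), and the median log2 fold change was 0.08. *Lrp1*, another receptor for apolipoprotein E, had a log2 fold change of 0.41 (adjusted p = 0.0006663), *Sorl1* one of 0.32 (adjusted p = 0.03368) and *Lrp6* one of -0.33 (adjusted p = 0.07688). Of 5 other Src family kinases, 3 passed the filter on low counts and 0 were called, with 0 at an unadjusted p under 0.05 (*Lck* at 0.48, *Yes1* at -0.10 and *Lyn* at -0.15 on the log2 scale), and *Fgr* and *Blk* were too low to test.

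Genes that lie within or across the members were examined, since the sources used here do not say whether counting was strand-specific. In GENCODE M21, the antisense gene *Gm10475* shares 246 exonic bases with *Reln*, 1.04% of its exons, and had at most 6 counts in any library, and no other gene shares exonic bases with a member. The processed pseudogene *Gm16111* (chr5:21889780-21890064, plus strand), which lies between exons of *Reln*, had 62, 211 and 163 counts in the controls and 32, 68 and 12 in the mutants, against 4796 to 11411 for *Reln* (log2 fold change -2.02, SE 0.54, adjusted p = 0.02256). *Lrp8os2*, antisense to *Lrp8* with no shared exonic base, had 28, 33 and 37 counts in the controls and 62, 41 and 56 in the mutants (log2 fold change 0.62, SE 0.23, adjusted p = 0.07646).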

How the data were processed

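Total RNA of cerebella at postnatal day 1 was selected for poly(A) and sequenced as 150 bp paired-end reads. Reads with adapters or of low quality were removed by the authors. The deposited table holds raw counts per gene of reads aligned to mm10 (HISAT2 2.0.5 and featureCounts 1.5.0-p3 per the submitters' processing notes). The deposited FPKM values scale these counts by gene length and library total. Strand setting, annotation release and treatment of multi-mapped reads are not given in the sources used here. The files hold no comparison columns.

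Counts of all 54532 genes were analyzed with edgeR 4.0.16 under R 4.3.3, by filterByExpr, TMM and the quasi-likelihood functions glmQLFit and glmQLFTest, and p-values were adjusted by Benjamini-Hochberg over the 17505 genes tested. The common dispersion was 0.0105. CPM values are counts scaled to TMM-normalized library totals. Samples were grouped by their labels, which name littermates but not separate litters, so p-values measure the spread between these 3 and 3 samples. No library was a copy of another (chi-square per gene 3.64 to 10.1 within groups). Genes were joined by Ensembl identifier. Bounds of all 8 members equal those of GENCODE M21 on GRCm38.

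Alternatives were DESeq2 1.42.0, other size factors and filters, the replicate number as a block, Y-linked level as a covariate, limma-trend (limma 3.58.1) on log2(FPKM + 1) and log2(FPKM + 0.1), each library left out, and an adjusted p under 0.05 without a fold threshold. Strata by Y-linked reads and transcript lengths were added after seeing the data. On simulated counts of this comparison with 200 changed genes, edgeR recovered 200 with 1 false call among 17520 genes, DESeq2 197 with 0 among 31055, and limma-trend 151 with 7 among 23059 (52 of 100 at the smaller fold, 99 of 100 at the larger). The simulation gave every gene the common dispersion and took the changed genes from well-counted ones. Both planted folds exceeded the difference of every member but *Reln*, so it does not measure the power for smaller differences.

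The members and all gene lists were chosen with earlier results of these data known. Named were the 8 members, *Tox3* and *Atoh1*, of each pathway or family list the called genes and at most 3 others with the smallest p, of each cell type list at most 4 genes with the smallest p, and the 5 genes nearest in pattern to a called member. A few genes of the lists are not reported here and were left out of the lists' counts. Genes that overlap members were added for the check of shared reads.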

Additional observations from a re-analysis of the deposited data

How the results depend on the processing

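*Reln* was called in all 16 other fits (log2 fold change -1.19 to -1.05), and *Dab1* stayed at an adjusted p under 0.01 in 16 of 16 (0.38 to 0.43). *Fyn* did so in 11 of 16 and *Lrp8* in 2 of 16, and no member changed direction in these fits, which include each library left out. An adjusted p under 0.05 with no fold threshold gave 3 of 8 members higher, and 6 of 52 further pathway genes lower and 14 higher, where 12.9% of all tested genes were lower and 12.2% higher. Downregulated pathway genes numbered 1, and upregulated ones 1, in each of the 3 limma-trend fits. Over the whole table these called 360 down and 243 up on log2(FPKM + 1), 416 and 297 on log2(FPKM + 0.1), and 286 and 176 with no filter, against 635 and 530. Those 3 fits kept *Apoe* and *Nde1* and lost *Clu*, *Adamts2* and *Socs3*, the 3 of 20 named pathway genes that lost a call in any fit, while *Adamts3* gained a call in 4 of 16 (DESeq2, no filter on low counts, the replicate block and the Y-linked covariate). Among the fits with 1 library left out, the fewest calls came without mutant 3 (492 down and 349 up) and the most without mutant 2 (778 down and 569 up). The cause was not tested. When 1 library was left out, downregulated pathway genes ran from 1 (without control 2 or mutant 1) to 2. The difference in the log2 ratio of *Vldlr* to *Lrp8* ran from -0.19 to 0.00468 when 1 library was left out, and turned positive without control 2. Deviations of same-numbered libraries correlated at 0.24, 0.26 and -0.16, and those of differently numbered ones at -0.42 to 0.27. With 3 libraries a group, these values cannot decide whether the numbers pair the samples. With the replicate block, 1 member was downregulated and 696 and 561 genes of the table were called. *Vldlr* ranged from 0.00 (without mutant 2) to 0.19 (Y-linked covariate), where 3 libraries a group set the limit. The *Reln* level in the controls was 60.1 in place of 29.6 FPKM with the longest coding transcript.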

Other observations

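Further cell type lists were read beside the members, where 3.63% of all tested genes were downregulated and 3.03% upregulated. Of 5 oligodendrocyte lineage markers, 3 were upregulated (median log2 fold change 0.66), with *Sox10* at 0.97 and *Olig1* at 0.71, and *Pdgfra* was lower at -0.45. Of 6 meningeal markers, 3 were upregulated (median 0.55), among them *Col1a2* at 0.77. Of 5 microglial markers, 1 was upregulated, *C1qa* at 0.59. Of 4 markers of GABAergic interneuron precursors, 1 was downregulated, *Ptf1a* at -1.18, while *Pax2* was at 0.46 and *Kirrel2* at 0.47. Of 7 markers of glutamatergic nuclear neurons and unipolar brush cells, 1 was upregulated, *Meis2* at 0.66, while *Slc17a6* was at -0.49 and *Eomes* at -0.42. The calls of *Ptf1a*, *C1qa* and *Meis2* were lost when single libraries were left out, all 3 without mutant 1 or mutant 3, *Ptf1a* and *C1qa* also without control 1 or control 2, and *Ptf1a* without control 3. Their log2 fold changes ran from -1.34 to -0.80 for *Ptf1a*, 0.51 to 0.73 for *C1qa* and 0.46 to 0.76 for *Meis2* in 16 other fits.

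Of 6 endothelial and 5 erythrocyte markers, 0 were called by edgeR's quasi-likelihood test, with 1 and 0 at an unadjusted p under 0.05 (37.1% of all tested genes). Of 5 choroid plexus markers, 0 were called and 2 had an unadjusted p under 0.05, and their sum ran from 76.6 to 143 CPM in the controls and from 13.0 to 752 CPM in the mutants, with *Ttr* at 6.06 CPM in mutant 2 and 711 CPM in mutant 3. Of the 3 genes on the midbrain list, *Otx2* was downregulated at -1.16, with a mean of 52.9 CPM in the controls and 23.6 CPM in the mutants. *Pax7* was not called at 1.07, with low means of 0.996 and 2.09 CPM, and *Th* was too low to test. The genes of this list did not move together, and a difference in midbrain tissue was not tested. None of the 5 *Hox* genes passed the filter.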
